A study of Mus musculus with 6 samples.

Results

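The miR-181 family of mouse microRNAs (miRNAs) was followed in wound myofibroblasts and in GFP-low cells of skin. Its members were taken by name: every miRNA on the array whose name, without species prefix, arm and precursor number, is miR-181a, miR-181b, miR-181c or miR-181d. The rule found 6 of the 690 miRNA names, the 5p arms of all 4 miRNAs (mmu-miR-181a-5p, mmu-miR-181b-5p, mmu-miR-181c-5p and mmu-miR-181d-5p) and the 3p arms of both miR-181a precursors (mmu-miR-181a-1-3p and mmu-miR-181a-2-3p). The prefix, which stands for mouse, is left off from here on. The tested cells had strong GFP and came from wounds 7 days after injury, and the submitters call them myofibroblasts. The cells they were set against had weak GFP, came from uninjured skin and are called fibroblast-like. Both came from transgenic SMA-GFP mice and were sorted as negative for CD45, a blood cell marker, and for CD31, an endothelial marker. The GFP of these mice reports smooth muscle actin (SMA), which contractile cells make. The gate on GFP and the tissue therefore changed together, and their parts in any difference cannot be told apart. Each group had 3 preparations on 1 array each, called here by their numbers in the labels, 3, 4 and 6 for wound and 1, 2 and 5 for skin. Age and strain of the mice, and whether preparations came from separate animals, are not given in the labels, so the p-values speak of the variation among these preparations, part or all of which may be technical.

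MicroRNAs guide Argonaute proteins to messenger RNAs, mainly through the seed near their 5′ end, and lower the stability and translation of those RNAs. The miR-181 family is best known from lymphocytes, where miR-181a tunes the sensitivity of developing T cells by repressing phosphatases of the T cell receptor pathway. The 5p arm of each precursor is the arm mostly kept in Argonaute, and the 3p arm is mostly discarded. In a sorted cell population, fewer cells that make a miRNA and less miRNA per cell cannot be told apart.

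The mature sequences of the 4 5p arms are shown because they share the seed, in capitals (bases 2 to 8), and differ in a few bases outside it, which bears on how far an array can tell them apart. They are RefSeq's, on the GRCm38.p6 assembly, and all 6 names on the array were found there.
miR-181a-5p: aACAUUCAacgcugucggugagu
miR-181b-5p: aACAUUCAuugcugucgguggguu
miR-181c-5p: aACAUUCAaccugucggugagu
miR-181d-5p: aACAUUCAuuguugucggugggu
Counted from the 5′ end, miR-181b-5p differs from miR-181a-5p by A9U, C10U and A21G and by 1 more base at its end. miR-181d-5p differs from miR-181b-5p by C12U and lacks that last base. miR-181c-5p has miR-181a-5p's first 10 and last 12 bases and is 1 base shorter. No other mouse miRNA in the RefSeq table has this seed. The files hold no probe sequences, and how much of a signal came from a near-identical member was not tested.

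The 3p arms of the miR-181a precursors are shown because they alone tell those precursors apart. Their seeds, again in capitals, differ from that of the 5p arms and from each other.
miR-181a-1-3p: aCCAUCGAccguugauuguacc
miR-181a-2-3p: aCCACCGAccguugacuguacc
The family's 6 genes lie in 3 pairs. Mir181a-1 and Mir181b-1 are neighbours on chromosome 1, and Mir181c and Mir181d on chromosome 8. Mir181a-2 and Mir181b-2 are neighbours on chromosome 2, within the bounds of 2 genes, Nr6a1 and Nr6a1os. Mature miR-181a-5p and miR-181b-5p come from chromosomes 1 and 2 with the same sequence, so their signals cannot be assigned to a locus.

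The arrays were Agilent 1-colour arrays, on which a spot's brightness follows the amount of labelled RNA. To make arrays comparable, background-subtracted signals were expressed relative to the 75th percentile of the probes detected on every array. Levels below are log2 values of that ratio, with dim signals raised to a floor of -5.30. That percentile was 786 to 1136 scanner units on the wound arrays and 1244 to 1772 on the skin arrays, so the skin arrays were the brighter before scaling. A probe counted as well above background where the scanner had flagged more than 50% of its spots so. Testing required such a probe on all 3 arrays of wound, of skin or of both, and 222 of the 690 names and 4 of the 6 members met this. The number of arrays limits the precision. SD rests on the 3 arrays of a group. SE is that of limma, which draws each variance toward a value shared by all tested miRNAs. Of the names that mark the labelled cells (miR-199a, miR-199b, miR-214, miR-143 and miR-145a), 7 of 8 met the condition for testing, while 6 of 7 blood cell names and all 8 striated muscle names were so on no array. Of the 2 endothelial names, miR-126-5p was well above background on no array. The other, miR-126-3p, was well above background on all 6 arrays, although CD31-positive cells had been sorted out. It was at -4.27 to -3.80 on the wound arrays and -4.82 to -4.12 on the skin arrays. Its difference of 0.50 did not pass the test (adjusted p = 0.11 in limma), but passed with the slide row as a block (0.63, adjusted p = 0.042), with array weights (0.71, adjusted p = 0.027) and without skin preparation 2 (0.69, adjusted p = 0.040), while other scalings turned its sign.

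miR-181a-5p fell in the wound cells. Its level was -4.58, -4.54 and -4.87 in wound preparations 3, 4 and 6, against -2.38, -2.13 and -2.47 in skin preparations 1, 2 and 5. The groups did not overlap, and the gap between them was far wider than the spread within either. The mean was -4.66 ± 0.18 in wound and -2.33 ± 0.18 in skin (SD, n = 3 each), a difference of -2.34 (SE 0.14, adjusted p = 7.39e-05 in limma), or 5.05-fold lower. It was the 4th lowest of all 222 differences, and relative to their median of 0.38 it was -2.72. Under the main scaling and the 4 other scalings tried, the difference was between -3.02 and -2.34 and passed the test in each.

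miR-181b-5p fell too. It measured -3.92, -4.06 and -4.12 in the wound preparations, against -2.77, -2.55 and -2.82 in the skin preparations. All wound arrays were below all skin arrays. The difference of -1.32 (SE 0.10, adjusted p = 0.00016 in limma) corresponds to a level 2.49-fold lower in wound. Under the same 5 scalings it ranged from -2.003 to -1.32 and passed in each.

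**Figure D1:**
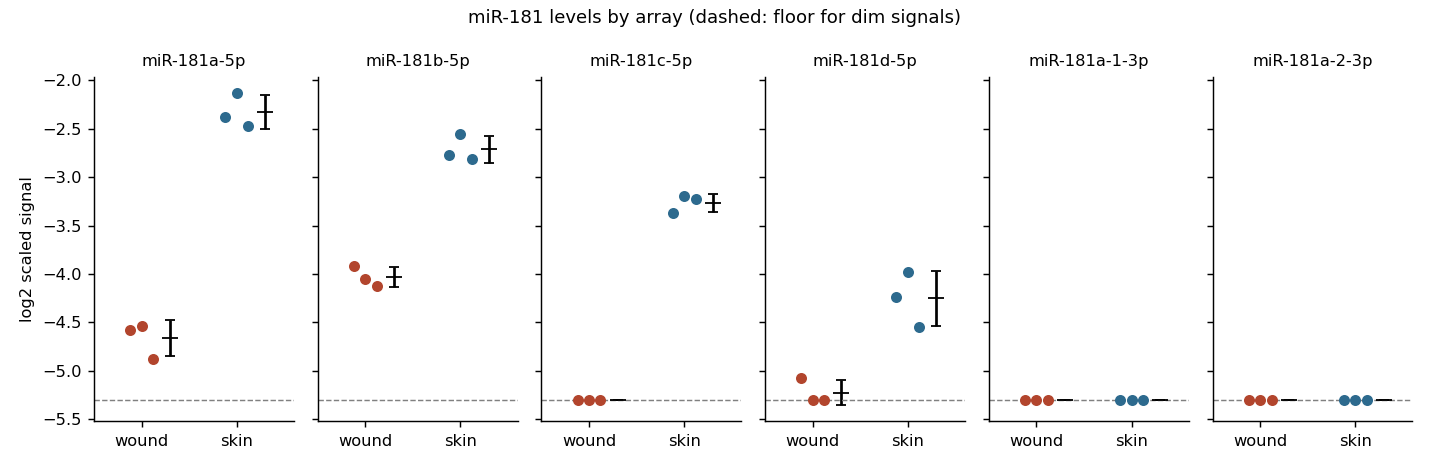
Log2 scaled signal of the 6 miR-181 names on the wound arrays (left in each panel) and the skin arrays (right), with 1 point per array, the mean and SD beside them and the floor at -5.30 as a dashed line. The wound points of miR-181a-5p and miR-181b-5p lie below their skin points and above the floor, those of miR-181c-5p lie on the floor, and both 3p arms lie on it in both groups.

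miR-181c-5p was measured in skin while no wound array had either of its probes well above background. Its levels were at the floor of -5.30 in all 3 wound preparations, against -3.37, -3.20 and -3.23 in the skin preparations. The wound value is therefore a bound, and the level was at least 3.48-fold lower in wound. Such a bound sets the mean of the brighter group against a ceiling for each array of the dimmer group. That ceiling is the dimmest probe signal well above background, or the miRNA's own mean over its probes where that is higher. A single probe may lie above it. The fit gave -2.04 (adjusted p = 4.43e-06 in limma), with no spread on the wound side because all 3 values are the floor, so that its SE of 0.06 is too small.

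miR-181d-5p, too, was well above background on skin arrays alone. The scanner's gene-detected flag, a looser call, was however set for it on all 3 wound arrays, and for miR-181c-5p on 1. Wound preparation 3 was at -5.08 and preparations 4 and 6 at the floor, against -4.23, -3.98 and -4.55 in skin. The groups did not overlap, and 2 of the 3 wound values are the floor. The level was at least 1.75-fold lower in wound, and the fitted difference was -0.98 (SE 0.17, adjusted p = 0.0049 in limma).

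Of all tested miRNAs, 20.7% were called lower in wound at an adjusted p under 0.05 (64.9% in either direction), and 21.2% were lower with groups that did not overlap (69.8% in either direction). miR-181c-5p and miR-181d-5p passed the filter through the skin arrays alone, where they are high, so their calls add nothing to a count of members. miR-181a-5p and miR-181b-5p were well above background on all 6 arrays. Both were called lower among the 156 miRNAs of which that holds, where 23.7% were.

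**Figure D2:**
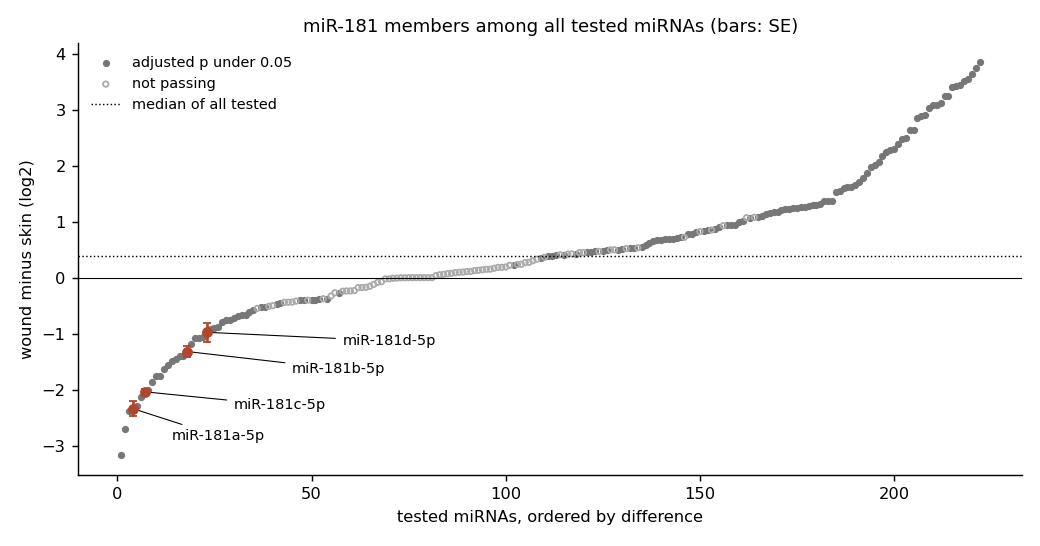
Difference between wound and skin (log2) of all 222 tested miRNAs in order, filled where the adjusted p was under 0.05, with the 4 miR-181 members in red with their SE and the median of 0.38 as a dotted line. miR-181a-5p is 4th, miR-181c-5p 7th, miR-181b-5p 18th and miR-181d-5p 23rd from the lowest.

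Each 5p name had 2 probes of 10 spots, and the group means of both probes lay lower in wound in each name. The brighter miR-181a-5p probe, A_54_P1123, gave 52.2, 73.3 and 61.0 scanner units in wound preparations 3, 4 and 6, against 422, 432 and 504 in skin preparations 1, 2 and 5, before scaling. Its second probe, A_54_P1122, was well above background on the skin arrays alone, at 13.6, 21.2 and 16.5 units in wound and 147, 137 and 137 in skin. After scaling, A_54_P1123 differed by -2.29 between the groups. A_54_P1122 gave -2.48, which is no measured difference since its wound signals are not above background.

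The miR-181b-5p probes matched each other closely, with scaled differences of -1.31 for A_54_P2650 and -1.33 for A_54_P2651, and both were well above background on all 6 arrays. The miR-181d-5p probes gave -0.94 for A_54_P2982, whose scaled values overlapped between the groups, and -1.26 for A_54_P2983. The miR-181c-5p probes gave -3.13 and -4.33 without the floor, from wound signals of 11.7, 20.8 and 14.4 units for A_54_P1484 and 2.93, 5.54 and 3.03 units for A_54_P1485. In skin they read 180, 176 and 246 units and 108, 94.6 and 132 units. No probe of miR-181c-5p or miR-181d-5p was well above background on a wound array, so these probe differences are no measured folds. For miR-181c-5p they lie well beyond the -2.04 computed with the floor. Among probes well above background, the spots of 1 probe on 1 array had a median coefficient of variation of 10.67% (3.05% to 17.8% over 33 combinations of probe and array).

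**Figure D3:**
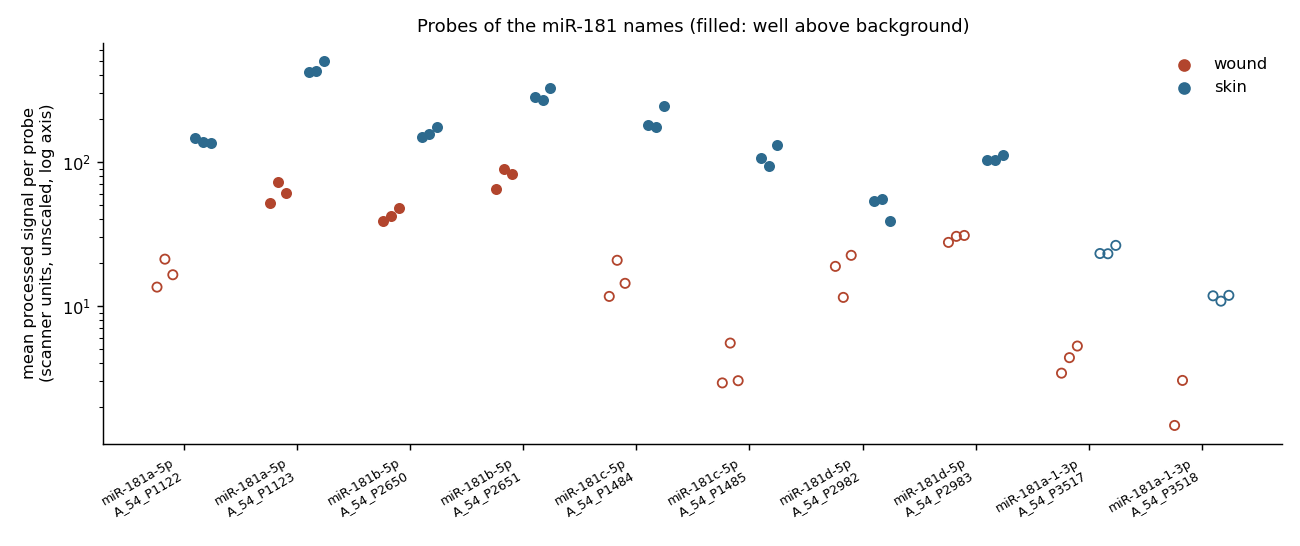
Mean processed signal of each probe of the 5p names and of miR-181a-1-3p on each array, unscaled, in scanner units on a log axis, wound in red left of skin in blue, filled where the probe was well above background. Every plotted wound point lies below all skin points of its probe; 1 value of A_54_P3518 below 0 is not drawn.

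The 3p arms were not tested, as no probe was well above background on any array. For miR-181a-1-3p, the arm of the chromosome 1 precursor, probe A_54_P3517 read 3.42, 4.39 and 5.28 units in wound against 23.2, 23.1 and 26.4 units in skin. All skin readings were higher than all wound readings, but at most 1 spot of this probe on an array was flagged as well above background. The scanner's own gene-detected flag, a looser call, was set for this arm on 2 of 3 skin arrays and on no wound array. miR-181a-2-3p, the arm of the chromosome 2 precursor, had no gene-detected flag on any array, and its 4 probes read between -4.68 and 7.05 units.

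Whether the members changed by different amounts was examined pair by pair. A ratio between members on 1 array cancels the array's scaling, and all 6 pairs of the 4 tested members were compared in this way by an exact two-sided permutation test over arrays, which with 3 arrays on each side cannot give a p under 0.1. Only miR-181a-5p and miR-181b-5p were measured in both groups. The log2 ratio of miR-181a-5p over miR-181b-5p was -0.63 ± 0.14 in wound and 0.39 ± 0.04 in skin (SD, n = 3 each), without overlap. The change of miR-181a-5p minus that of miR-181b-5p was thus -1.02 (exact permutation p = 0.1, adjusted over the 6 pairs 0.12). It did not pass a threshold of 0.05, which this design cannot reach. Normexp background correction brought the size down to -0.28, and a floor 4 times as high to -0.39. A further 4 pairs were separated at the same p, and miR-181a-5p against miR-181c-5p was not (exact permutation p = 0.2). All of these contain a member at or near the floor in wound, which sets their size.

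Within rows of the slide, which held both groups, the differences were much alike. In the first row, wound preparation 3 against skin preparations 1 and 2, miR-181a-5p differed by -2.32 and miR-181b-5p by -1.26. In the second row, wound preparations 4 and 6 against skin preparation 5, they differed by -2.24 and -1.27. miR-181c-5p gave -2.02 and -2.08, and miR-181d-5p -0.97 and -0.76. When each array was left out in turn, miR-181a-5p and miR-181b-5p were called in 12 of 12 fits, with limma adjusted p of at most 0.0018. The other tested members have wound values at the floor, and their calls without an array (adjusted p up to 0.023 for miR-181d-5p) are largely set by it.

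Several settings changed the size of these differences. With normexp and quantile normalization they shrank to -1.005 for miR-181a-5p, -0.73 for miR-181b-5p, -0.80 for miR-181c-5p and -0.34 for miR-181d-5p. All passed the test, though miR-181c-5p and miR-181d-5p had passed the filter through the skin arrays alone. With normexp and percentile scaling all 4 turned to values above 0 (0.23, 0.56, 0.65 and 1.16 in that order) and none passed, while all tested miRNAs together then had a median of 1.31, higher than each of them. With the floor 4 times as high, miR-181a-5p and miR-181b-5p kept their calls at -0.98 and -0.59, whereas miR-181c-5p and miR-181d-5p lay at or near the floor in both groups.

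**Figure D4:**
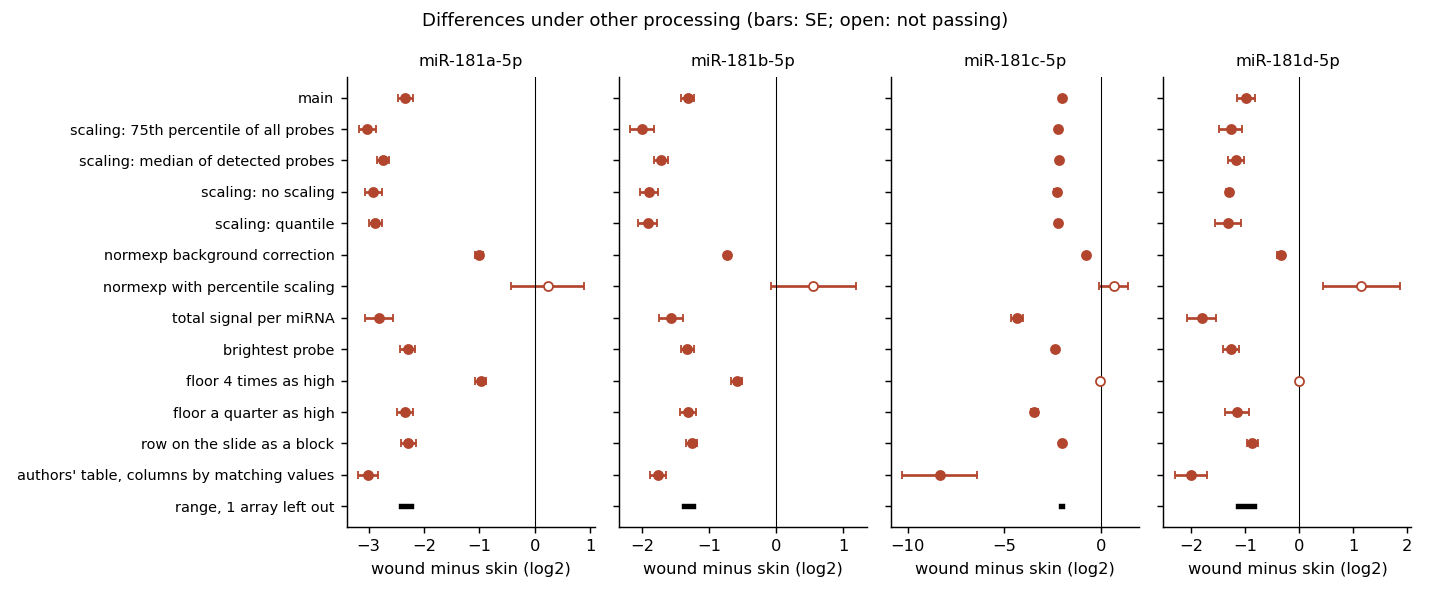
Difference between wound and skin (log2, SE as bars) of the 4 tested members under the main and other settings (the authors' table by column numbers is not drawn), filled where the adjusted p was under 0.05, with the range over left-out arrays as a black bar. Each panel has its own horizontal scale. Values lie left of 0 except with normexp and percentile scaling and, for miR-181d-5p, with the higher floor, where the value is 0, and miR-181c-5p reaches -8.36 in the authors' table, where undetected miRNAs carry a very low constant.

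Signal of keratinocyte markers was lower in wound as well, through 2 of 12 names. Over the 12 epithelial names (miR-203, miR-205, miR-200a, miR-200b, miR-200c, miR-141 and miR-429), the summed scaled signal was 0.0051 to 0.0092 on the wound arrays and 0.12 to 0.20 on the skin arrays. The other 10 names were well above background on no array, among them miR-200c-3p, miR-141-3p and miR-429-3p. miR-203-3p was at the floor in wound, against -4.12, -3.32 and -4.11 in skin preparations 1, 2 and 5, and miR-205-5p was at the floor in wound, against -4.77, -3.83 and -4.56 in skin. In limma miR-203-3p differed by -1.45 (adjusted p = 0.0044) and miR-205-5p by -0.92 (adjusted p = 0.028). Both passed the filter through the skin arrays alone, where they are high, so their calls add nothing to a count of names. Every wound value of both is the floor, which sets the size of the differences. The wound side therefore has no spread, and these p are too small. The call on miR-205-5p was lost with the slide row as a block (adjusted p = 0.069), with no filter (adjusted p = 0.16) and in 4 of 6 fits that left out an array (adjusted p up to 0.085). Both calls were lost with the higher floor, which covers them. After scaling, skin preparation 2, the highest in both, was also the skin array with the highest level of each of the 4 miR-181 members. Its signals were divided by the smallest percentile of the skin arrays (1244 units). Before scaling, A_54_P2982 of miR-181d-5p was the only 5p probe brightest in skin preparation 2. It read 54.1, 55.3 and 38.9 units in skin preparations 1, 2 and 5. Every other 5p probe was brighter in another skin preparation. A_54_P1123 of miR-181a-5p, for example, read 432 units in skin preparation 2 and 504 in preparation 5. Without skin preparation 2 miR-181a-5p differed by -2.24 and miR-181b-5p by -1.24, and both were called. The part of these cells in the result was not tested.

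Of the blood cell names, 6 of 7 were well above background on no array. The defining markers miR-142-3p, miR-142-5p, miR-223-3p, miR-150-5p and miR-144-3p were at the floor on all 6 arrays, and miR-451a was well above background on 2 of the 3 skin arrays although its mean over probes was at the floor. The summed scaled signal of the 7 blood cell names was 0.027 to 0.036 on the wound arrays and 0.016 to 0.032 on the skin arrays. Whether blood cells had a part in the miR-181 differences was not tested.

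Mir181c and Mir181d lie next to another miRNA cluster on chromosome 8. In the gene order of GRCm38.p6 the next gene after Mir181c is Mir23a, followed by Mir27a and Mir24-2. The 3p arms of this cluster were measured on all arrays and were lower in wound. miR-23a-3p measured 0.67, 0.60 and 0.58 in wound and 1.99, 2.40 and 2.15 in skin, a difference of -1.57 (SE 0.11, adjusted p = 0.00016 in limma). miR-24-3p, which a second gene elsewhere also encodes, differed by -1.07 and miR-27a-3p by -0.67 (SE 0.10 and 0.12). Both passed the test. miR-27a-5p and miR-24-2-5p of the same genes were well above background on no array. No miRNA gene outside the family lay within 10 genes of the pairs on chromosomes 1 and 2.

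The tested miRNAs most like miR-181a-5p over the 6 arrays were found by the root mean square difference between log2 profiles, each centred on its own mean. They were miR-23b-3p (0.20), miR-218-5p (0.27), miR-29c-3p (0.27), miR-100-5p (0.27) and miR-29a-3p (0.32). miR-29 targets collagens and other matrix transcripts. Those most like miR-181b-5p were miR-125b-5p (0.082), miR-99a-5p (0.095), miR-30c-5p (0.096), miR-24-3p (0.14) and miR-23a-3p (0.14). Their profiles share the arrays and their scaling, and with 3 arrays a group the likeness is mostly a like difference between the groups. Differences of the first 5 ran from -2.29 for miR-29c-3p to -1.75 for miR-29a-3p. In the second 5 they ran from -1.57 for miR-23a-3p to -1.07 for miR-24-3p. miR-23a-3p and miR-24-3p are thus both neighbours of Mir181c by gene order and close in profile to miR-181b-5p.

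**Figure D5:**
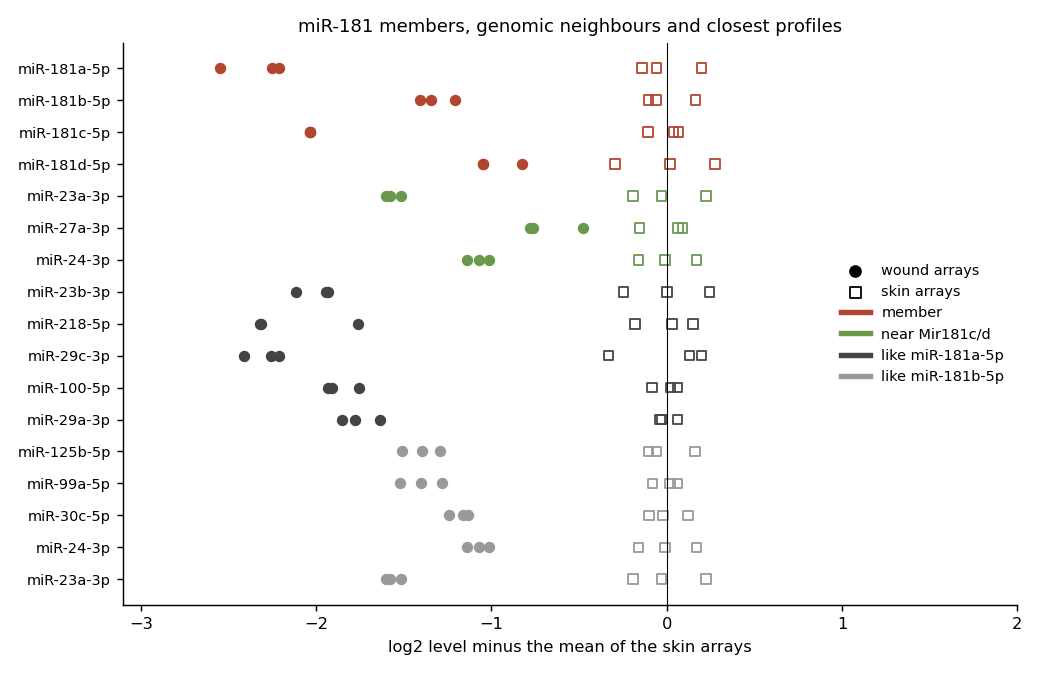
Log2 level of each array minus the mean of the skin arrays, wound arrays as filled circles and skin arrays as open squares, for the 4 tested miR-181 members, the 3 measured neighbours of Mir181c and Mir181d and the 5 closest profiles to miR-181a-5p and to miR-181b-5p. For every miRNA shown all wound points lie left of all skin points, as for 21.2% of all tested miRNAs. The closest profiles were chosen for likeness to members that are so separated. The wound points of miR-181c-5p and miR-181d-5p lie at or near the floor.

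Other miRNAs with a known part in lymphocytes were examined beside the family. Of 20 names on the array with such a role (miR-150, miR-155, miR-146a, miR-142, miR-223, miR-342 and members of the miR-17-92 cluster) 8 were tested. Of these 6 were higher and 0 lower in wound (3 to 6 higher and 0 to 1 lower over the 5 scalings, and 2 higher with the higher floor). Their median difference was 0.99, against 0.38 for all tested miRNAs, of which 44.1% were called higher. The smallest p were those of miR-18a-5p (1.62), miR-155-5p (1.30), miR-146a-5p (1.21) and miR-19a-3p (1.71). The first 3 of these were at the floor on all skin arrays, which sets their size and makes their p too small, and they were at 0 with the higher floor. miR-18a-5p and miR-155-5p passed the filter through the wound arrays alone, where they are high. Their calls therefore add nothing to the count of higher names, and the median of 0.99 includes them. miR-155-5p and miR-146a-5p respond to inflammatory signals.

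Among miRNAs known to respond to TGF-beta, the main inducer of myofibroblasts, changes went both ways. Of 15 tested names 4 were higher, 5 lower and 6 did not pass, with a median difference of 0, against 0.38 for all tested miRNAs. That median is a miRNA at the floor on all 6 arrays, as 3 of the 15 were, and without these it was -0.037. Over the 5 scalings 3 to 5 were higher and 5 to 7 lower. Among the higher names miR-155-5p and miR-145a-5p passed the filter through the wound arrays alone, so their calls add nothing to that count. The smallest p were those of miR-29a-3p (-1.75), miR-143-3p (1.24), miR-21a-5p (2.24) and again miR-155-5p (1.30, set by the floor). miR-21a-5p is induced in many kinds of tissue injury, and miR-143-3p is abundant in smooth muscle. Of the 7 tested names that mark the labelled cells, 2 were higher (miR-143-3p and miR-145a-5p) and 2 lower in wound. Over the 5 scalings 1 to 3 were higher and 2 to 3 lower. miR-145a-5p was called in 2 of these scalings, and 2 of its 3 skin values are the floor. Its call adds nothing to this count either. Of all tested miRNAs 44.1% were called higher and 20.7% lower. The lower names were miR-199b-5p (-0.75, adjusted p = 0.0072 in limma) and miR-199a-3p (-0.62, adjusted p = 0.010 in limma).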

How the data were processed

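RNA of 6 sorted preparations was measured on 6 arrays on 1 slide, read with Agilent Feature Extraction 10.7.3.1 per the file headers. The deposited scanner files hold spot intensity without normalization between arrays. A table of log2 values was deposited as well, and how it was made is not given in the sources. Over 656 shared names each column differs from log2 of an array's total signals by a constant, to within 0.001, but the columns' numbers do not follow the array titles. The main values therefore come from the scanner files. Column medians lie between -12.53 and -11.76.

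Processed signals were averaged over spots without outlier flags (2.14% to 3.11% of spots had one, and 0 were saturated), scaled as described above, averaged over the probes of a miRNA on the linear scale and raised to a floor of 0.0253, the median over arrays of the lowest signal well above background. Groups were compared with limma 3.58.1 in R 4.3.3 (lmFit, eBayes, two-sided), with Benjamini-Hochberg adjustment over all 222 tested miRNAs at 0.05, and the code was tested on simulated data. Exact permutation tests used scipy 1.17.1, and figures matplotlib 3.10.9. Normexp (offset 50) used median signals, since the files held no mean signal. Alternatives covered scaling, background correction, probe summary, floor, filter, test, slide row, each array left out and the authors' table. Named miRNAs are all members, names sharing a seed with them, the 5 nearest profiles to each member measured in both groups, miRNAs within 10 genes of a member, and the 4 smallest p of each list. Members and lists were chosen with earlier results of these data known.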

Additional observations from a re-analysis of the deposited data

How the results depend on the processing

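Over all settings 46 of 50 values of miR-181a-5p and miR-181b-5p, the members measured in both groups, kept direction and call, and so did 500 of 570 values of the other 23 miRNAs named or on the marker lists. With the authors' table taken by column numbers, which mix the groups, 0 miRNAs passed limma, 0 higher and 0 lower and 0 members among them, 1 had an unadjusted p under 0.05, and every sign below turned. The differences were then 0.74 for miR-181a-5p, 0.51 for miR-181b-5p, 1.16 for miR-181c-5p, 0.83 for miR-181d-5p, 0.66 for miR-23b-3p, 0.95 for miR-218-5p, 1.14 for miR-29c-3p, 0.79 for miR-100-5p, 0.78 for miR-29a-3p, 0.52 for miR-125b-5p, 0.67 for miR-99a-5p, 0.58 for miR-30c-5p, 0.44 for miR-24-3p, 0.59 for miR-23a-3p, 0.51 for miR-27a-3p, -0.71 for miR-155-5p, -0.17 for miR-146a-5p, -0.25 for miR-143-3p, -0.43 for miR-21a-5p, -0.14 for miR-126-3p, 2.97 for miR-203-3p, 2.77 for miR-205-5p, -0.91 for miR-145a-5p, 0.55 for miR-199b-5p and 0.29 for miR-199a-3p. The change of miR-181a-5p over miR-181b-5p was then 0.23, of miR-181b-5p over miR-181c-5p -0.66 and of miR-181c-5p over miR-181d-5p 0.33. With columns given to the array whose values they equal, an alternative added after the data were seen, the members differed by -3.01, -1.77, -8.36 and -1.998 (a to d) and all passed. The calls on miR-181c-5p and miR-181d-5p add nothing, since both passed the filter through the skin arrays alone. The size of -8.36 is set by the very low constant of undetected miRNAs, which miR-181c-5p carries on 2 of the 3 wound arrays.

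With normexp and percentile scaling, also added after the data were seen, 22 miRNAs passed, 17 higher and 5 lower, against 144, 98 and 46 in the main setting, and 0 members. The members were at 0.23, 0.56, 0.65 and 1.16 (a to d), miR-30c-5p at 0.52, miR-203-3p at 0.83 and miR-205-5p at 1.03, and the change of miR-181b-5p over miR-181c-5p was -0.096. The cause was not tested. The median of all tested miRNAs was then 1.31, against 0.38 in the main setting, and it moved by -0.57 to -0.37 with other scalings or with normexp and quantile normalization. The percentile of all probes gave 76 lower and 52 higher calls (40.6% higher, against 68.1% in the main setting), no scaling gave 54 higher (50.0%), and the median of detected probes and quantile normalization gave 50.0% and 51.1% higher. miR-126-3p, 0.50 in the main setting without passing, was at -0.19, -0.084 and -0.22 with the percentile of all probes, no scaling and quantile normalization, and at -0.065 with normexp and quantile normalization, and it passed at 0.63 with the slide row as a block and at 0.71 with array weights.

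With a floor 4 times as high 78 miRNAs passed, 44 higher, and 2 members, with miR-181c-5p at -0.059 and miR-181d-5p at 0, since the floor then covers their levels; the change of miR-181b-5p over miR-181c-5p was -0.53. When only the 156 miRNAs measured on every array were tested, 59 were higher and 2 members were lower. The change of miR-181a-5p over miR-181c-5p was 1.54 with total signals per miRNA, 0.10 with the brightest probe, 1.12 with a floor of 0.25 times the height and 5.35 with the authors' table by values. That of miR-181b-5p over miR-181d-5p was 0.23 with total signals and with the authors' table by values. Signals near background thus limit what can be said of miR-181c-5p and miR-181d-5p in wound. No paired analysis was possible because the groups share no replicate number.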

Other observations

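In the authors' deposited table, with each column given to the array whose values it equals, miR-181a-5p had log2 values of -3.54, -3.22 and -3.70 in wound preparations 3, 4 and 6 and of -0.45, -0.29 and -0.68 in skin preparations 1, 2 and 5. In the authors' deposited table miR-181b-5p had -2.55, -2.74 and -2.61 in wound and -0.84, -0.72 and -1.03 in skin. miR-181c-5p stood at the lowest value of its column on 2 of the 3 wound arrays and at -5.41 on the third, against -1.44, -1.37 and -1.44 in skin in the authors' deposited table. miR-181d-5p had a value above the column's lowest on all 6 arrays of the authors' deposited table, at -4.45, -4.85 and -3.89 in wound and -2.30, -2.14 and -2.76 in skin. In the authors' deposited table miR-181a-1-3p was above the lowest value on 2 arrays, skin preparations 2 and 5, at -4.92 and -5.28, and miR-181a-2-3p on none.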
